A study of Mus musculus with 22 samples.

Results

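This report describes the miRNAs of round spermatids (RS) of GRTH knock-out (KO) mice beside those of wild-type (WT) mice. RS are the haploid germ cells that follow meiosis and then elongate into sperm. GRTH, also called DDX25, is an RNA helicase of the testis. The 5 KO libraries and the 5 WT libraries of the same experimental batch were chosen by their labels, 10 of the 22 small RNA libraries of the series. The other 12 libraries, 6 of GRTH knock-in (KI) mice, which carry a changed GRTH, and 6 of WT mice, formed a second batch and were used only where the KO effect is set beside the KI effect. The mice of each group were 75 to 85 days old, RS were isolated from the testes, and the labels name no treatment. The KO allele is carried by the whole animal, so the cells that surround RS lacked GRTH as well. The labels do not say which animals each library holds, so p-values measure the spread between libraries. The Grth transcript is not a miRNA, and its level was not analysed here.

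A miRNA is a short RNA cut as 1 of 2 arms, 5p or 3p, from a hairpin precursor. It guides a protein complex to mRNAs that pair with its seed, bases 2 to 8, and lowers their translation or stability. miRNAs that share a seed can pair with the same sites. RS are known for high levels of the miR-34b/c and miR-449 family, and the testis is known for clusters of rapidly evolving miRNAs on the X chromosome.

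The table counted 1966 mature names, and 937 of them had at least 1 count in the 10 libraries. Total counts were 870913 to 1081333 in WT and 559957 to 881323 in KO. Levels are given as CPM, that is counts relative to the library total, corrected by TMM, a method which rests on the bulk of miRNAs not changing. A count of 3, the smallest taken as shown at this depth, stood for 2.77 to 5.36 CPM. Round spermatids were labelled in all 10 libraries, and their markers were abundant in each. miR-34c-5p ranged from 133538 to 191477 CPM, miR-34b-5p from 18829 to 29702 CPM and miR-449a-5p from 34924 to 42350 CPM.

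The mature sequences of the miRNAs with the largest changes are printed 5′ to 3′ from RefSeq (mouse, GRCm38.p6), with the seed in capitals. The first set holds miRNAs with the largest falls in KO, without miR-140-5p and miR-669f-3p, which had no sequence to print. No 2 of the printed seeds are alike.
miR-140-3p: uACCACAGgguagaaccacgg
miR-28a-5p: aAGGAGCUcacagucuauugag
miR-138-5p: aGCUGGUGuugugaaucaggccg
miR-32-5p: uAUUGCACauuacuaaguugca
miR-184-3p: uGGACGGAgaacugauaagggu
miR-335-5p: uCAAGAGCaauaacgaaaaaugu
miR-141-3p: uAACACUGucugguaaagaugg
miR-96-5p: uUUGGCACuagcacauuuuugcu

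The second set holds miRNAs with the largest rises, and it adds the rises that gained most CPM, miR-125b-5p, let-7c-5p and miR-26a-5p. miR-143-3p and miR-328-3p, also among the largest rises, are not printed. miR-199a-3p and miR-199b-3p have the same mature sequence and are 1 result.
miR-146a-5p: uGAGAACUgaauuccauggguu
miR-23a-3p: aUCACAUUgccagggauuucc
miR-409-3p: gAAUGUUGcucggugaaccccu
miR-10b-5p: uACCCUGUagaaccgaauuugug
miR-199a-3p: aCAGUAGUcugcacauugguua
miR-7221-5p: cGUCUCUUggucacagguggg
miR-155-5p: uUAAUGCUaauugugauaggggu
miR-125b-5p: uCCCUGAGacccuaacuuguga
let-7c-5p: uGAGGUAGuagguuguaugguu
miR-26a-5p: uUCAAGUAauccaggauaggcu

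The third set holds products of the X chromosome cluster that fell as a group in KO. miR-465a-3p, miR-465b-3p and miR-465c-3p share 1 sequence, and miR-743a-3p and miR-743b-3p share a seed.
miR-465b-3p: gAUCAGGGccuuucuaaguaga
miR-741-3p: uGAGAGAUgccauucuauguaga
miR-880-3p: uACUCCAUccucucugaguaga
miR-743a-3p: gAAAGACAccaagcugaguaga
miR-743b-3p: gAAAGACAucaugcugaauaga

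The comparison asks how the miRNAs of RS differ when GRTH is missing. Of 334 miRNAs tested, 140 (41.9%) passed a Benjamini-Hochberg adjusted threshold of 0.1 in the quasi-likelihood test of edgeR, and this is what is meant by called, risen or fallen throughout. The 5 KO and 5 WT libraries did not overlap for 67 miRNAs (20.1%), 29 higher (8.68%) and 38 lower (11.4%). In KO, 71 (21.3%) rose and 69 (20.7%) fell. Most changes were small. The median size was 0.55 on the log2 scale, 15 of the 140 were over 1 and 64 were under 0.5. The rises were larger, with a median of 0.71 against 0.38 for the falls, and they lay at lower levels, with a median of 201 CPM against 528 CPM. The miRNAs that fell held 69.3 to 70.5% of the counts of WT libraries and 62.3 to 67.5% of those of KO libraries. Those that rose held 6.19 to 7.93% and 8.66 to 12.1%. When libraries were scaled by their totals alone, the median log2 change of the 334 miRNAs moved from 0.01 to 0.13, and the calls were 101 higher (30.2%) and 44 lower (13.2%). The changes below are on the TMM scale, and values by total alone are given where they end the call of a named miRNA.

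**Figure D1:**
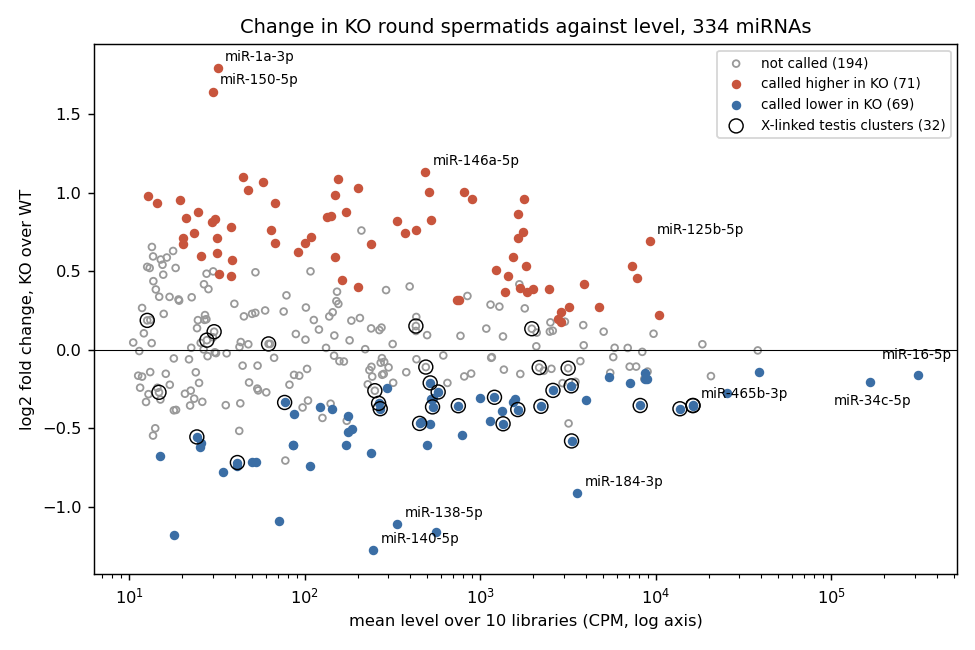
Log2 change of each of the 334 tested miRNAs in KO over WT (vertical axis) against its mean CPM over the 10 libraries (horizontal log axis), with called rises in red, called falls in blue and the X-linked testis clusters ringed. Of the 10 largest rises all but miR-199a-3p lie under 1000 CPM, and the 2 most abundant miRNAs, miR-16-5p and miR-34c-5p, lie just under the zero line.

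Both products of the miR-140 hairpin were among the 3 deepest falls. Both lie on chromosome 8 (107551249 to 107551308, GRCm38) within the gene Wwp2 and are known from cartilage. miR-140-3p stood at 644, 753, 830, 714 and 923 CPM in WT and at 353, 342, 337, 336 and 363 CPM in KO. The 5 KO values were far closer together than the WT values, and the highest KO library was at 363 CPM where the lowest WT library was at 644 CPM. The mean fell from 773 ± 108 to 346 ± 11.7 CPM (SD, n = 5 each), a log2 change of -1.16 (SE 0.10, adjusted p 2.22e-05 by edgeR). miR-140-5p was at 304, 331, 382, 315 and 405 CPM in WT and at 134, 106, 151, 178 and 152 CPM in KO, a log2 change of -1.28 (SE 0.14, adjusted p 9.41e-05 by edgeR). The 5p and 3p products thus fell side by side, and their ratio was not called.

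miR-184-3p, on chromosome 9 (89802263 to 89802284) outside annotated genes, was the most abundant of the deep falls. It is known from the testis and from the eye. Its WT values were 4668, 5297, 4327, 4578 and 4489 CPM and its KO values 761, 2731, 2270, 3740 and 2921 CPM. All KO libraries lay under all WT libraries, and KO replicate 1 lay far under the other KO libraries. The log2 change was -0.91 (SE 0.29, adjusted p 0.0327 by edgeR), and the call held without any single library.

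miR-138-5p is best known from the brain. Its loci are at 94324312 to 94324334 of chromosome 8 and at 122682898 to 122682920 of chromosome 9. It was at 390, 378, 556, 472 and 505 CPM in WT and at 157, 143, 285, 258 and 228 CPM in KO, a log2 change of -1.11 (SE 0.19, adjusted p 0.00183 by edgeR). The groups did not overlap, and KO replicates 1 and 2 were the lowest. miR-32-5p lies in an intron of Tmem245 on chromosome 4 (56895272 to 56895293) and shares its seed with miR-25-3p, miR-92a-3p and miR-92b-3p. It was at 98.6, 100.4, 92.9, 104.9 and 90.3 CPM in WT and at 54.0, 55.1, 35.3, 35.6 and 46.2 CPM in KO, a log2 change of -1.09 (SE 0.15, adjusted p 5.44e-04 by edgeR). Its more abundant seed mates were not called. miR-25-3p, at 9169 CPM in WT and 8058 CPM in KO, had a log2 change of -0.19 (SE 0.09, adjusted p 0.137 by edgeR), and miR-92a-3p one of -0.01 (SE 0.08, adjusted p 0.907 by edgeR).

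The remaining 5 of the 10 largest falls had WT means of 25.3 to 292 CPM. miR-28a-5p, in an intron of Lpp, fell by 1.18 on the log2 scale (SE 0.28) but rested on 118 counts over WT and 41 over KO. miR-141-3p, an epithelial miRNA, was at 145, 129, 154, 110 and 132 CPM in WT and at 96.1, 81.1, 50.3, 84.7 and 89.1 CPM in KO, and fell by 0.74 (SE 0.17). miR-96-5p, of a cluster known from sensory cells, was at 277, 327, 314, 291 and 250 CPM in WT and at 236, 164, 132, 185 and 211 CPM in KO, and fell by 0.66 (SE 0.15). miR-335-5p, in an intron of the imprinted gene Mest, fell by 0.78 (SE 0.23) from 43.5 ± 7.91 to 24.8 ± 8.02 CPM (SD, n = 5 each), and KO replicate 1 and WT replicate 2 were only just apart at 31.59 and 31.60 CPM. miR-669f-3p, of the Sfmbt2 cluster described below, fell by 0.74 (SE 0.21). Their adjusted p in edgeR lay between 0.00759 and 0.0234.

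**Figure D2:**
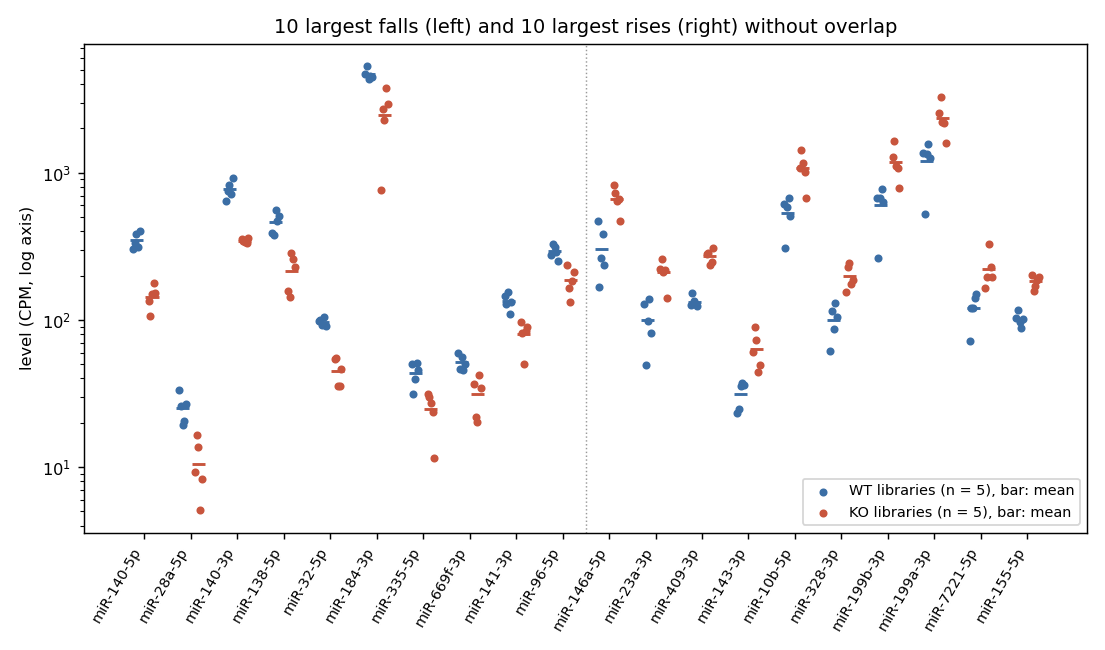
CPM on a log axis of the 10 largest falls (left of the dotted line) and the 10 largest rises (right of it) among called miRNAs with at least 10 CPM and no overlap, with each of the 5 WT libraries in blue, each of the 5 KO libraries in red and bars at the means. KO replicate 1 of miR-184-3p, at 761 CPM, and WT replicate 2 of miR-199a-3p, at 528 CPM, stand apart from their groups.

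Of the 10 largest rises, miR-409-3p and miR-155-5p had groups that lay far apart. miR-409-3p belongs to the imprinted Dlk1-Dio3 domain on chromosome 12 (109743204 to 109743225). It was at 126, 151, 135, 127 and 125 CPM in WT and at 280, 284, 238, 247 and 307 CPM in KO, a log2 change of 1.03 (SE 0.11, adjusted p 6.27e-05 by edgeR). miR-155-5p, known from activated immune cells, lies in an exon of the non-coding Mir155hg on chromosome 16 (84714143 to 84714165). It was at 103, 116, 97.2, 88.1 and 102 CPM in WT and at 203, 157, 171, 188 and 195 CPM in KO, a log2 change of 0.85 (SE 0.12, adjusted p 5.44e-04 by edgeR). In both cases the lowest KO library stood well above the highest WT library.

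The other large rises were more spread within WT. miR-146a-5p, another miRNA known from immune cells, was at 469, 168, 265, 385 and 236 CPM in WT and at 825, 725, 647, 663 and 470 CPM in KO, so that KO replicate 5 and WT replicate 1 almost met. Its log2 change was 1.13 (SE 0.24, adjusted p 0.00637 by edgeR). miR-10b-5p, within the Hoxd cluster on chromosome 2 (74726074 to 74726096), was at 609, 309, 583, 671 and 511 CPM in WT and at 1081, 1428, 1173, 1010 and 678 CPM in KO, a log2 change of 1.0 (SE 0.21, adjusted p 0.00627 by edgeR). miR-23a-3p, on chromosome 8 (84208563 to 84208583), was at 129, 49.7, 98.3, 139 and 82.0 CPM in WT and at 223, 260, 212, 219 and 142 CPM in KO, a log2 change of 1.09 (SE 0.24). WT replicate 2 was the lowest library for all 3, and KO replicate 5 the lowest KO library for all 3.

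miR-199a-3p, known from fibroblasts and smooth muscle, was at 1357, 528, 1340, 1563 and 1267 CPM in WT and at 2564, 3263, 2213, 2166 and 1587 CPM in KO, a log2 change of 0.96 (SE 0.25, adjusted p 0.013 by edgeR). miR-199b-3p, its twin in sequence with 1 locus in place of 2, was at 605 CPM in WT, where miR-199a-3p was at 1211 CPM. miR-143-3p, known from smooth muscle, rose by 1.02 (SE 0.22) from 31.5 ± 6.89 to 63.4 ± 18.4 CPM (SD, n = 5 each). miR-328-3p rose by 0.99 (SE 0.20) and its rarer partner miR-328-5p by 0.59 (SE 0.25, adjusted p 0.0906 by edgeR). The call of miR-328-5p was lost in 8 of 10 fits without a library, all but those without KO replicates 2 or 5, and in 4 other fits (adjusted p up to 0.301). miR-7221-5p, on chromosome 2 (92592206 to 92592226), was at 71.9 to 150 CPM in WT and at 165 to 330 CPM in KO and rose by 0.88 (SE 0.22). The 20 miRNAs with the largest changes were picked as called, at 10 CPM or more and without overlap in these same libraries. None of these 20 lost its call in any fit with another tool, scaling, filter or library set in which it was tested. The choice itself favours calls that hold. Changes of like or larger size whose groups overlapped were left out. Of these, miR-1a-3p, at 1.80, lost its call without KO replicate 1 (adjusted p 0.114 by edgeR). miR-221-3p, at 0.95, lost its call in 7 of 10 fits without a library.

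In CPM gained or lost, other miRNAs led. miR-125b-5p gained most, at 6309, 4249, 7987, 9795 and 7068 CPM in WT and at 11104, 14722, 11601, 11594 and 8140 CPM in KO, a log2 change of 0.69 (SE 0.20, adjusted p 0.0175 by edgeR). KO replicate 5 lay within the WT range. miR-26a-5p, with loci in introns of the phosphatase genes Ctdsp2 and Ctdspl, was at 6693, 6040, 6688, 7442 and 6298 CPM in WT and at 9011, 10429, 8746, 9462 and 7813 CPM in KO, a log2 change of 0.46 (SE 0.08, adjusted p 0.00234 by edgeR). let-7c-5p gained too, with a log2 change of 0.53 (SE 0.22, adjusted p 0.0892 by edgeR), but its groups overlapped and the call was lost without WT replicates 1, 2 or 5 or without KO replicates 1, 2, 3 or 4 (adjusted p 0.113 to 0.225).

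The 3 miRNAs that lost most CPM were miR-16-5p, miR-34c-5p and miR-34b-5p, and each call was lost in several of the other fits. miR-16-5p was at 316031, 350957, 322942, 328082 and 336401 CPM in WT and at 325332, 274430, 255642, 286594 and 334200 CPM in KO, a log2 change of -0.16 (SE 0.07, adjusted p 0.0927 by edgeR). KO replicates 1 and 5 stood within the WT range and the other 3 stood under it. miR-34c-5p had a log2 change of -0.21 (SE 0.08, adjusted p 0.0809 by edgeR) and miR-34b-5p one of -0.27 (SE 0.11, adjusted p 0.0643 by edgeR), again with KO replicates 1 and 5 inside the WT range. By library totals alone the adjusted p values were 0.266, 0.177 and 0.121, and without KO replicate 3 they were 0.18, 0.155 and 0.139. Each of the 3 calls was also lost without WT replicates 1, 2 or 3 and without KO replicates 2 or 4.

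Of 9 names of the miR-34b/c and miR-449 family 7 were tested, 1 rose and 2 fell, with a median log2 change of -0.07 against 0.01 over all 334. By library totals alone the balance was the opposite, with 3 rises, miR-449a-5p among them, and 0 falls. The 3p products had log2 changes of -0.07 (miR-34c-3p, adjusted p 0.604 by edgeR) and -0.11 (miR-34b-3p, adjusted p 0.276 by edgeR). miR-449a-5p was at 38214 ± 2523 CPM in WT and 38090 ± 2378 CPM in KO (SD, n = 5 each). miR-449c-5p, singled out after its values were seen, comes from the same Cdc20b cluster on chromosome 13 and was the riser, at 182, 252, 212, 258 and 309 CPM in WT and at 284, 344, 575, 493 and 451 CPM in KO, a log2 change of 0.82 (SE 0.19, adjusted p 0.00889 by edgeR). KO replicate 1 lay within the WT range.

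The clearest group fall was that of the X-linked testis clusters. Of 38 names 32 were tested, 21 fell and 0 rose, where 20.7% of all tested miRNAs fell. Their log2 changes ran from -0.72 to 0.19 with a median of -0.32. Summed over all 38 names, the level was 87168, 90212, 96916, 92756 and 90932 CPM in WT and 70642, 71471, 71000, 74311 and 77223 CPM in KO. The highest KO sum lay under the lowest WT sum, a loss from a mean of 91597 to 72929 CPM. The sums and the 21 falls hold miR-465a-3p, miR-465b-3p and miR-465c-3p, which are 1 sequence counted under each name. Their means over the 10 libraries were 8159, 16319 and 16273 CPM, so this sequence weighs heavily in the sums. A single cluster on the minus strand of the X chromosome, between 66776760 and 66839121, held 30 of the 32 tested names and all 21 that fell. The 2 others, miR-201-3p and miR-547-3p, had log2 changes of 0.11 and 0.06 and were not called. By library totals alone 11 of the 32 were called lower and 1 higher, and leaving out a library gave 17 to 22 lower and 0 higher.

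Within the cluster the abundant 3p products differed in how far they fell. The shared sequence of the miR-465 3p products, counted under miR-465b-3p, was at 17234, 18424, 19077, 19178 and 17690 CPM in WT and at 14033, 14297, 13504, 14000 and 15749 CPM in KO, a log2 change of -0.36 (SE 0.06, adjusted p 0.00171 by edgeR). The counts of miR-465b-3p and miR-465c-3p, with 2 loci each, were near double those of miR-465a-3p, with 1 locus, so these names are 1 result. miR-741-3p was at 14529, 15039, 17013, 15339 and 15716 CPM in WT and at 11662, 11173, 11913, 12413 and 12637 CPM in KO, a log2 change of -0.38 (SE 0.06, adjusted p 0.00161 by edgeR). miR-880-3p fell more, from 3466, 3971, 4422, 3813 and 4190 CPM to 2452, 2645, 2631, 3001 and 2543 CPM, a log2 change of -0.58 (SE 0.08, adjusted p 5.44e-04 by edgeR). Neither of these had overlapping groups. miR-743a-3p and miR-743b-3p fell least of those printed above, by 0.23 and 0.26, and were not called by library totals alone (adjusted p 0.174 and 0.133). Chosen after their values were seen, miR-871-3p at 1877 CPM in WT and 2059 CPM in KO (log2 change 0.13, adjusted p 0.3 by edgeR) and miR-878-3p (0.15, adjusted p 0.497 by edgeR) were members without a call, while the opposite arms miR-871-5p and miR-878-5p fell by 0.36 and 0.27. Scaled by library totals alone, miR-871-3p was called higher (adjusted p 0.0935) and miR-878-5p was not called (adjusted p 0.136).

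The falls of the X chromosome lay mostly in this cluster. Of 55 X-linked miRNAs tested, 24 (43.6%) fell and 6 (10.9%) rose, against 45 (16.1%) and 65 (23.3%) of the 279 on other chromosomes. Outside the cluster, 3 of 25 X-linked miRNAs (12%) fell and 6 (24%) rose, with a median log2 change of 0.05. A second X-linked cluster, that of miR-322 and miR-503 between 53048008 and 53054327, went up, with 4 of its 5 tested names called higher. It was singled out after its values were seen. miR-322-5p, whose seed AGCAGCA is that of miR-16-5p, was at 361, 228, 477, 466 and 368 CPM in WT and at 582, 715, 763, 812 and 495 CPM in KO, a log2 change of 0.82 (SE 0.19, adjusted p 0.00889 by edgeR). miR-351-5p, which carries the seed of miR-125b-5p, rose by 0.94 (SE 0.28) and miR-503-5p by 0.62 (SE 0.16).

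The other cluster with many falls was the large repeat family in an intron of Sfmbt2 on chromosome 2. Of 80 names of this type 42 were tested, 16 (38.1%) fell, where 20.7% of all tested miRNAs fell, and 0 rose, with a median log2 change of -0.24. The count was 13 by library totals alone. Their summed level was 22881 to 24300 CPM in WT and 17497 to 22135 CPM in KO. As a share of library totals it was 2.168 to 2.374% in WT and 1.915 to 2.207% in KO, so the groups overlapped on that scale. miR-466b-3p, the name with 8 loci there, was at 4657, 4487, 4622, 4440 and 4007 CPM in WT and at 3671, 3838, 3240, 3350 and 3718 CPM in KO, a log2 change of -0.32 (SE 0.07, adjusted p 0.00709 by edgeR). The names miR-466a-3p, miR-466c-3p, miR-466e-3p and miR-466p-3p moved by -0.32 each, as closely related copies would in these counts, and are not separate results. The same holds for miR-297a-3p, miR-297b-3p and miR-297c-3p, which moved by -0.61 each at means of 171.6, 85.8 and 85.8 CPM. The 16 falls (38.1%) and the summed level count every one of these names. miR-669a-3p, at 7675 CPM in WT and 6633 CPM in KO, had a call that was lost by library totals alone (adjusted p 0.324). miR-669c-5p fell by 0.54 (SE 0.14) from 933 to 640 CPM.

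**Figure D3:**
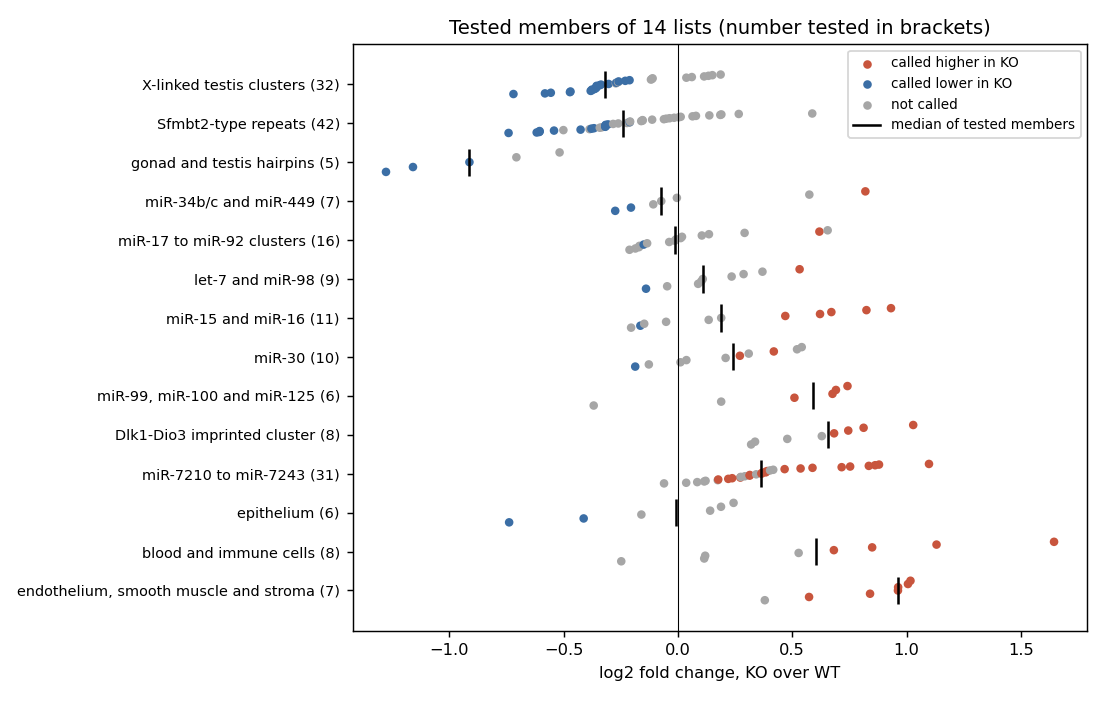
Log2 change in KO over WT (horizontal axis) of the tested members of 14 lists (rows, number tested in brackets), red for called higher, blue for called lower and grey for not called, with black bars at the medians. The X-linked testis clusters and the Sfmbt2-type repeats lie mostly left of zero with 21 and 16 falls, and the stromal and immune lists lie mostly to the right.

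Of the gonad and testis hairpins, 5 of 6 names were tested and 3 fell, where 20.7% of all tested miRNAs fell. The 3 were the products of miR-140 and miR-184-3p given above. The other 2 were miR-202-5p and miR-202-3p, known from the gonads. They had log2 changes of -0.71 (SE 0.32, adjusted p 0.104 by edgeR) and -0.52 (SE 0.35, adjusted p 0.259 by edgeR), with overlapping groups. The list holds only miR-140, miR-184 and miR-202, which the study names as lower in KO from these libraries. Its falls are thus not independent evidence, and most of its summed level is miR-184-3p.

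A group of rises, put together after the values were seen, was that of the names miR-7210 to miR-7243. Of 64 names 31 were tested, 20 rose and 0 fell, where 21.3% of all tested miRNAs rose, and the median log2 change was 0.37. The sum was 43400, 53283, 43945, 49341 and 52275 CPM in WT and 53442, 56154, 71421, 59548 and 60301 CPM in KO. All 5 KO sums lay above all WT sums, though KO replicate 1 only just, and KO replicate 3 was the highest. miR-7214-5p, the most abundant, was at 9373, 10263, 9057, 9476 and 10068 CPM in WT and at 11127, 10654, 11423, 11475 and 11506 CPM in KO, a log2 change of 0.22 (SE 0.06, adjusted p 0.0119 by edgeR). miR-7217-5p rose by 0.27 (SE 0.07) and miR-7218-3p by 0.75 (SE 0.18). Without a filter on low counts miR-7214-5p and miR-7217-5p had adjusted p values of 0.255 and 0.137, and leaving out a library gave 15 to 24 rises in the group.

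The imprinted Dlk1-Dio3 domain, a maternally expressed cluster known from placenta, brain and stem cells, was low in all libraries. Only 8 of its 103 names were tested, 4 rose, where 21.3% of all tested miRNAs rose, and 0 fell, and all 8 log2 changes were positive with a median of 0.66. The summed level was 644, 622, 625, 617 and 708 CPM in WT and 1011, 1166, 1203, 1008 and 1028 CPM in KO, with no overlap. miR-541-5p was at 269, 313, 270, 223 and 322 CPM in WT and at 411, 477, 594, 436 and 421 CPM in KO, a log2 change of 0.74 (SE 0.13, adjusted p 0.00192 by edgeR). miR-409-5p rose by 0.68 (SE 0.13) beside miR-409-3p. miR-127-3p, at 5.64 to 38.4 CPM in WT and 28.1 to 47.6 CPM in KO, was called at an adjusted p of 0.0927 in edgeR and lost the call without WT replicates 1, 2, 3 or 5 or KO replicates 1, 2, 3 or 4.

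Large conserved families held calls in both directions or in 1, where 21.3% of all tested miRNAs rose and 20.7% fell. Of the miR-15 and miR-16 family 11 of 17 names were tested, 5 (45.5%) rose and 1 (9.09%) fell, and the riser with the highest level was miR-322-5p. The other risers were miR-503-5p and miR-503-3p of the same X-linked cluster, and miR-15b-3p and miR-195a-3p, at means of 38.05 and 20.28 CPM. Leaving out a library gave 2 to 4 rises and 0 to 3 falls. By library totals alone the family had 6 rises and 0 falls, let-7 and miR-98 had 2 and 0, and the miR-30 family 5 and 0. Of let-7 and miR-98 9 of 23 were tested, with let-7c-5p higher, let-7a-5p lower and 7 not called. let-7a-5p, at 40719 CPM in WT and 36961 CPM in KO, lost its call by library totals alone (adjusted p 0.683). Of the miR-30 family 10 of 11 were tested. miR-30d-5p rose from 3320 ± 317 to 4440 ± 217 CPM (SD, n = 5 each), a log2 change of 0.42 (SE 0.08, adjusted p 0.00224 by edgeR), and miR-30a-5p by 0.27 (SE 0.08), while miR-30c-5p had -0.19 (SE 0.07, adjusted p 0.059 by edgeR) and miR-30e-5p 0.01. The call of miR-30c-5p was lost by library totals alone (adjusted p 0.348). In the miR-99, miR-100 and miR-125 family 4 of 6 tested names (66.7%) rose and 0 fell, with a median log2 change of 0.59. The sum was 5132 to 11748 CPM in WT and 9530 to 17150 CPM in KO, with overlap. Only 1 of the 6 tested names had no overlap between groups, and leaving out a library gave 2 to 4 rises. The calls of miR-125a-5p and miR-99a-5p (adjusted p 0.0892 and 0.0493 by edgeR) were lost in 6 and 2 of 10 fits without a library.

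Of 16 tested miRNAs of the miR-17 to miR-92 clusters, known from proliferating cells, 1 rose and 1 fell, with a median log2 change of -0.01. The fall, that of miR-93-5p, was lost by library totals alone (adjusted p 0.597). The 4 tested miR-181 and 2 tested miR-192 and miR-194 products gave no call, and neither did 2 of miR-132 or the 2 tested products of the miR-290 and miR-302 clusters of stem cells. Of the miR-29 family miR-29c-3p rose and miR-29b-3p fell, the latter not by library totals alone (adjusted p 0.467). Of the miR-148 and miR-152 family miR-148b-3p fell by 0.33 and miR-148a-3p rose by 0.19 on the log2 scale. The call of miR-148a-3p (adjusted p 0.0843 by edgeR) was lost in 6 of 10 fits without a library, those without WT replicates 1, 2 or 4 or KO replicates 1, 2 or 4, and in 5 other fits. miR-26b-5p had a log2 change of 0.26 (SE 0.12, adjusted p 0.104 by edgeR) beside the rise of miR-26a-5p. Of miR-23, miR-27 and miR-24, miR-23a-3p and miR-24-3p rose and 3 products were not called. In the Hox clusters miR-10b-5p and miR-196a-5p rose, the latter with a log2 change of 1.07 (SE 0.26), and miR-10a-5p did not (-0.11, adjusted p 0.468 by edgeR). In the cluster of miR-96-5p, miR-182-5p fell by 0.24 (SE 0.09, lost by library totals alone at an adjusted p of 0.262) and miR-183-5p had -0.22 (SE 0.10, adjusted p 0.105 by edgeR). miR-221-3p, the only tested product of miR-221 and miR-222, had a log2 change of 0.95 (SE 0.40, adjusted p 0.0892 by edgeR), and KO replicate 5, at 4.95 CPM, lay under every WT library.

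Markers of other cells of the testis were measured in the same libraries. Of 12 names of endothelium, smooth muscle and stroma 7 were tested, 6 rose, where 21.3% of all tested miRNAs rose, and 0 fell, with a median log2 change of 0.96, and miR-126a-3p of endothelium was not called (0.38, adjusted p 0.327 by edgeR). The 6 rises include both arms of miR-199a and of miR-199b, so they are not separate markers. miR-199a-3p and miR-199b-3p, at means of 1785 and 892 CPM over the 10 libraries, are 1 sequence and make up much of the sum. The sum of the 12 names was 2624, 1170, 2874, 3291 and 2531 CPM in WT and 5058, 6411, 4549, 4379 and 3102 CPM in KO. KO replicate 5 lay within the WT range and WT replicate 2 lay under the other WT libraries. None of the 12 names was at 0 in every library, and leaving out a library gave 5 or 6 rises. Of 17 names of blood and immune cells 8 were tested, 4 (50.0%) rose and 0 fell. Their sum was 5199 to 6358 CPM in WT and 6119 to 7990 CPM in KO, most of it miR-142a-3p, which was not called (0.11, adjusted p 0.391 by edgeR), and the red cell miR-451a had -0.25 (SE 0.59). miR-150-5p of lymphocytes was at 8.12, 4.51, 28.1, 26.2 and 5.19 CPM in WT and at 47.4, 75.9, 31.3, 57.6 and 14.9 CPM in KO, a log2 change of 1.65 (SE 0.51, adjusted p 0.0273 by edgeR), and KO replicate 5 lay inside the WT range.

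Striated muscle could not be read as a group, and the tested epithelial names had log2 changes in both directions. Of 15 muscle names only miR-1a-3p was tested. It was at 6.96, 15.8, 8.64, 13.1 and 26.99 CPM in WT and at 144, 29.1, 35.3, 10.2 and 29.7 CPM in KO, and its call (log2 change 1.80, SE 0.61, adjusted p 0.0417 by edgeR) was lost without KO replicate 1 (adjusted p 0.114). miR-206-3p and miR-133b-3p were at 0 in all 10 libraries. Of 14 epithelial names 6 were tested, and miR-141-3p and miR-200c-3p fell (33.3%, where 20.7% of all tested miRNAs fell) while 4 were not called. The call of miR-200c-3p was lost by library totals alone (adjusted p 0.133). The rises of miR-199a-3p, miR-143-3p, miR-146a-5p, miR-10b-5p, miR-125b-5p and miR-23a-3p stood in libraries in which the stromal sum was higher too, and its part in them was not tested. miR-199a-3p and miR-143-3p are themselves members of that sum. In bulk libraries more cells of a type and more of a miRNA per cell cannot be told apart.

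**Figure D4:**
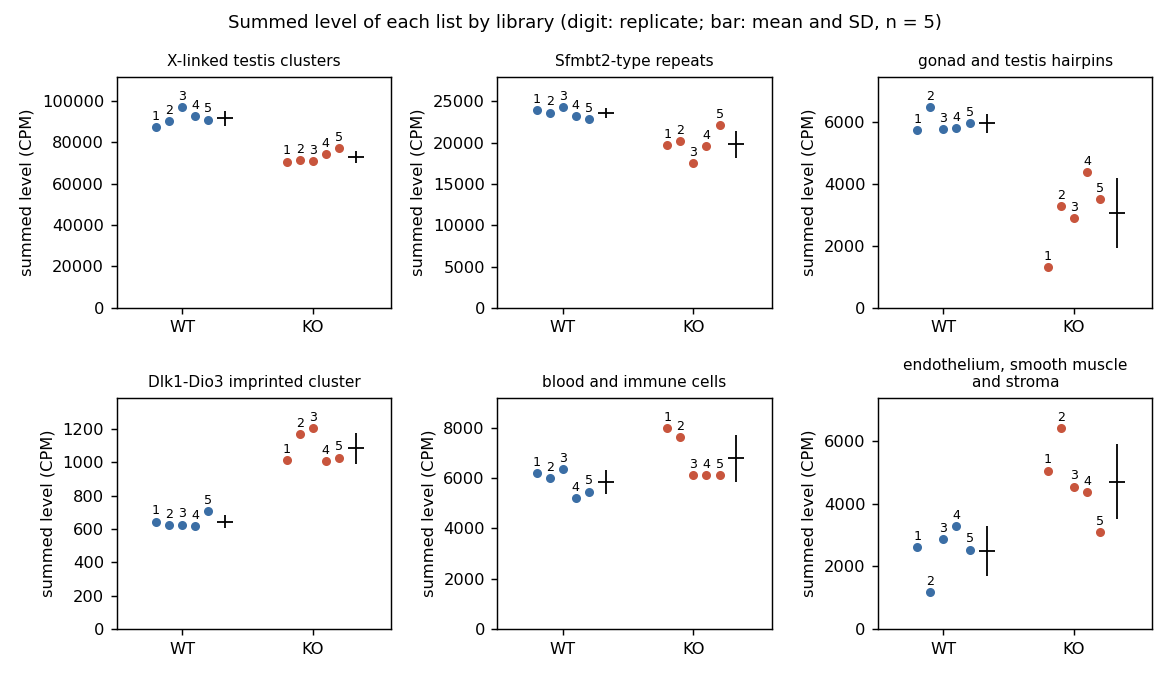
Summed CPM of 6 lists in each WT library (blue) and KO library (red), with the replicate number beside each point and the mean and SD (n = 5) in black; each vertical axis starts at 0. On the TMM scale drawn here the X-linked, Sfmbt2-type, gonad and Dlk1-Dio3 sums do not overlap between groups. As a share of library totals the Sfmbt2-type sums do overlap. KO replicate 5 lies within the WT range of the stromal sum.

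Counts were then summed over all names with the same seed, to ask whether the level available to a set of target sites changed. Names with a RefSeq sequence, 1675 of 1966 and 78.6% of the counts, entered the sums, and miR-34c-5p was not among them. The sums were scaled over these names alone, so their CPM and log2 changes are on another scale than those of single miRNAs and are not to be set against them. Of 206 seeds tested, 92 (44.7%) were called, 43 (20.9%) higher and 49 (23.8%) lower. Of the 31 seeds with at least 2 tested names, 6 were higher, 11 lower and 14 not called.

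The higher shared seeds other than CAGUAGU and AGUAGAC were led by 1 member each. CAGUAGU is the seed of miR-199a-3p and miR-199b-3p, which are 1 sequence, and it rose by 0.90 (SE 0.25). AGUAGAC of miR-411-5p and miR-7229-5p rose by 0.41 (SE 0.097). CCCUGAG, the seed of miR-125a-5p, miR-125b-5p and miR-351-5p, rose by 0.61 (SE 0.20), from 6119 to 14741 CPM in WT to 11790 to 20437 CPM in KO. UCAAGUA of miR-26a-5p and miR-26b-5p rose by 0.36 (SE 0.09, adjusted p 0.0127 by edgeR). ACCCUGU of miR-10a-5p and miR-10b-5p rose by 0.67 (SE 0.17), and GAGAACU of miR-146a-5p and miR-146b-5p rose by 0.61 (SE 0.15).

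Lower shared seeds included those of the X chromosome cluster. AUCAGGG of the miR-465 3p products fell by 0.41 (SE 0.07, adjusted p 0.00117 by edgeR), AACUGCA of miR-883a-3p and miR-883b-3p by 0.41 (SE 0.11) and AAAGACA of miR-743a-3p and miR-743b-3p by 0.30 (SE 0.06). AGCAGCA, which miR-16-5p dominates, had a log2 change of -0.21 (SE 0.08, adjusted p 0.0533 by edgeR), and its call was lost by library totals alone (adjusted p 0.201) and without WT replicate 3 or KO replicates 2, 3 or 4. GAGGUAG of the 9 tested let-7 and miR-98 products was not called (-0.06, SE 0.07), and neither was AUUGCAC (-0.16, SE 0.07, adjusted p 0.113 by edgeR), the seed of miR-32-5p.

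Of the pairs with 1 seed and calls in opposite directions, miR-103-3p and miR-107-3p, with the seed GCAGCAU, had no overlap between groups. The pair was singled out after its values were seen. miR-107-3p was at 124, 92.5, 123, 133 and 123 CPM in WT and at 194, 185, 192, 161 and 163 CPM in KO, a log2 rise of 0.59 (SE 0.12, adjusted p 0.00437 by edgeR). miR-103-3p was at 9225, 9634, 9172, 9889 and 9406 CPM in WT and at 8493, 8184, 8641, 8130 and 8145 CPM in KO, a log2 change of -0.19 (SE 0.05, adjusted p 0.0149 by edgeR). Scaled by library totals alone, miR-103-3p was not called (adjusted p 0.351), and neither was the sum of the seed (adjusted p 0.333).

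The 2 arms of a hairpin mostly moved together. Of 86 hairpins with both arms tested, 22 had both arms called, 13 with both higher, 9 with both lower and 0 in opposite directions. In 35 only 1 arm was called and in 29 neither. The 5p to 3p ratio itself, tested within libraries so that scaling has no part, was called for 11 hairpins (12.8%), 4 towards 5p and 7 towards 3p. These calls rested on single libraries. Without WT replicate 2 or without KO replicate 3 the count was 0, without WT replicate 3 it was 1, and without KO replicate 1 it was 18.

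The hairpin of miR-872, named here with the other called ratios after their values were seen, was 1 of the 11. Its ratio of 5p to 3p was 9.06, 12.5, 10.9, 7.49 and 9.98 in WT and 8.30, 6.14, 5.76, 5.83 and 4.58 in KO, a log2 change of -0.70 (SE 0.20, adjusted p 0.0385 by edgeR). KO replicate 1 lay within the WT range and the other 4 KO libraries lay under it. miR-871 had ratios of 0.407, 0.280, 0.344, 0.278 and 0.312 in WT and of 0.243, 0.241, 0.196, 0.267 and 0.203 in KO, with no overlap. miR-297a and miR-361 shifted towards 5p by 0.67 (SE 0.19) and 0.98 (SE 0.28), and miR-7217, miR-7218 and miR-7222 towards 3p by 0.57, 0.46 and 0.45. The other called ratios were those of miR-15b, miR-195a, miR-466b and miR-7216.

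**Figure D5:**
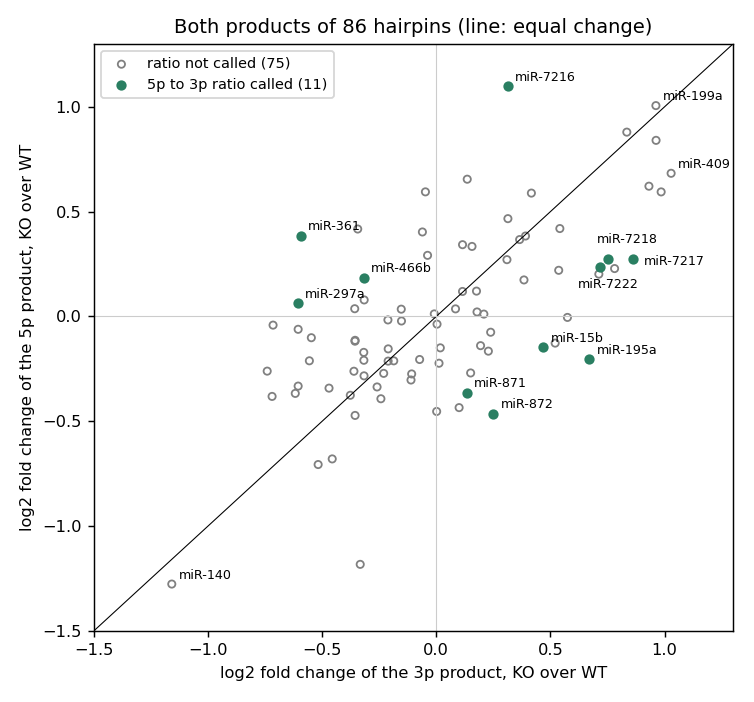
Log2 change in KO over WT of the 5p product (vertical axis) against that of the 3p product (horizontal axis) for 86 hairpins, green where the 5p to 3p ratio was called, with a line of equal change. miR-140 lies near the line at the lower left and miR-409 and miR-199a at the upper right, and the 11 called hairpins lie off the line.

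The KO effect was set beside that of KI RS, each against the WT libraries of its own batch, in a fit of all 22 libraries. Of 421 miRNAs tested, 0 (0.0%) passed the threshold for a difference between the 2 effects in edgeR, 67 had an unadjusted p under 0.05, and DESeq2 called 0. Without KI replicate 2 the count was 26, and without replicate 1 of the second WT group it was 1. The falls of miR-140-3p, miR-138-5p and miR-96-5p had KI log2 changes of -1.12 (SE 0.10), -1.36 (SE 0.13) and -0.54 (SE 0.14). miR-465b-3p, miR-741-3p and miR-880-3p of the X chromosome cluster had -0.37 (SE 0.05), -0.43 (SE 0.05) and -0.43 (SE 0.08) in KI. For miR-140-5p the KI value was -0.93 (SE 0.11), a difference of -0.37 (SE 0.17, adjusted p 0.265 by edgeR).

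Of the rises, miR-10b-5p, miR-409-3p and miR-541-5p had KI log2 changes of 0.89 (SE 0.18), 0.70 (SE 0.10) and 0.70 (SE 0.11). The widest gap among the 20 largest changes was that of miR-7221-5p, at 0.88 in KO and -0.26 (SE 0.21) in KI, a difference of 1.11 (SE 0.32) with an edgeR adjusted p of 0.202 and an unadjusted p of 0.00206. miR-125b-5p had 0.19 (SE 0.16) in KI, a difference of 0.47 (SE 0.24, adjusted p 0.347 by edgeR). miR-32-5p had -0.45 (SE 0.15) in KI, a difference of -0.67 (SE 0.25, adjusted p 0.202 by edgeR), and miR-184-3p had -0.40 (SE 0.46), a difference of -0.55 (SE 0.69, adjusted p 0.711 by edgeR).

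The study names miRNAs as lower or as higher in KO. It chose them on these libraries, so their direction here is not independent evidence. By qRT-PCR in RS the study also reported miR-140, miR-141, miR-32, miR-184 and miR-202 lower in KO. The miRNAs it reported higher by qRT-PCR were miR-150, miR-146, miR-122a, miR-27a, miR-328 and miR-26a. Those measurements were not examined here. The study means 5p products unless it states otherwise, and its assays for miR-141, miR-184 and miR-328 are labelled 5p. For miR-141 and miR-184 only the 3p arms were tested here, so the sequencing and qRT-PCR values are of unlike products. The counts below take both arms of each miRNA the study names. Of 18 product names read from the lower list 11 were tested and 9 fell, with a median log2 change of -0.74. miR-1981-5p, in an intron of Marc2, was at 45.2, 44.0, 76.7, 93.7 and 54.0 CPM in WT and at 36.9, 46.8, 39.4, 40.7 and 26.4 CPM in KO, with overlap at KO replicate 2. The 2 that did not pass were miR-202-5p and miR-202-3p. Of 24 product names from the higher list 8 were tested and all 8 rose, with a median of 0.99. As given above, the calls of miR-127-3p and miR-328-5p were lost in most fits without a library. No product of miR-122, miR-27a, miR-652 or miR-379, which the study also names as higher, was tested. For miR-122a the study itself reports no significant change in its sequencing, while its qRT-PCR results give miR-122a as higher in KO. Its discussion calls the qRT-PCR change a reduction, and proposes that low expression may explain why the assays differ. The study also reports that a miR-122 mimic lowered the activity of a reporter with the Tnp2 3′ UTR.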

How the data were processed

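Counts per mature miRNA were taken as the authors deposited them. Per the labels and headers, the authors trimmed reads with cutadapt 3.4, aligned them with Bowtie2 2.4.2 to mm10 (GRCm38) and counted alignments with featureCounts of Subread 2.0.1. Reads of names with 2 or more loci (82 of 1966) could be counted at each. All columns of the deposited counts were mapped to a sample.

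The main fit was edgeR 4.0.16 (quasi-likelihood, TMM, filterByExpr, genotype only) in R 4.3.3, with a biological coefficient of variation of 0.167. Seeds were summed before fitting. Arm ratios were fitted with library as a block. DESeq2 1.42.0, limma 3.58.1, other scalings and filters, thinning, and leaving out each library were alternatives. Hosts came from GENCODE annotation of GRCm38.

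Named miRNAs were the 10 largest rises and falls with at least 10 CPM and no overlap, the 3 largest gains and losses in CPM, their other arms, and the 4 most abundant per list. The members and lists were chosen with earlier results of these data known. Replicates differed by at least 7.28 chi-square per degree of freedom. Fits were tested on simulated data. Floors cover counting error only.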

Additional observations from a re-analysis of the deposited data

Results flagged for a closer look

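Each named miRNA was screened in WT and in KO for a library whose gap to the next, on log2(CPM + 1), was over 0.71 of the range of its 5 libraries. Of 254 combinations 20 stood out, where about 5% (12.7) do by chance.

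In WT replicate 2, miR-199a-3p (gap 0.806 of the range) and miR-199b-3p (0.806), which are 1 sequence, and miR-99a-5p (0.802) were low, at 528, 264 and 93.7 CPM against at least 1267, 633 and 192 CPM in the other WT libraries. miR-107-3p (0.773) was low there too, at 92.5 CPM. miR-92a-3p (0.833), miR-25-3p (0.764) and miR-93-5p (0.754) were high there, at 10395, 10082 and 10027 CPM. In KO replicate 5, miR-126a-3p (0.788) and miR-335-5p (0.71) were low, at 162 and 11.6 CPM, miR-503-5p (0.741) was low as well, at 80.9 CPM, and miR-93-5p (0.745) was high, at 8823 CPM. KO replicate 3 was low for miR-141-3p (0.736) and high for miR-7222-5p (0.834). KO replicate 2 was low for miR-19b-3p (0.813) and for miR-883b-3p (0.947), at 501 CPM against at least 691 CPM, and KO replicate 4 was high for miR-194-5p (0.836). In WT, replicate 5 was high for miR-29a-5p (0.779) and replicate 4 low for miR-669a-5p (0.71), miR-883a-3p (0.732) and miR-883b-3p (0.738).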

How the results depend on the processing

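The count of called miRNAs was 103 to 145 under other tools, scalings, filters and a threshold of 0.05, and 112 to 153 when a library was left out, against 140. That of called seeds was 79 to 92, and 69 to 91 without a library, against 92. By library totals alone the count of falls was 44 in place of 69, and since the median moved from 0.01 to 0.13, values just under 0 changed sign. Of the miRNAs and seeds followed, those called in either fit were miR-449a-5p, at 0.11 (adjusted p 0.0983), and the seed AAAGUGC, at 0.02 from -0.13. Leaving out a library gave 55 to 74 rises and 57 to 79 falls, 0 to 18 hairpins with a changed arm ratio, and 0 to 26 miRNAs with different KO and KI effects.

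The counts showed no clear pairing of KO and WT libraries of the batch by replicate number. The labels do not state a pairing, and so few correlations cannot exclude one. Same-numbered KO and WT libraries had deviation correlations of -0.213 to 0.307, and 3 of 10 libraries correlated best with their own number. Pairing in the KI batch was not examined. Blocking on that number, 124 miRNAs, 84 seeds and 21 hairpins were called for KO, and 25 differences between KO and KI were called in the fit with the replicate block.

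Of 127 miRNAs followed, 22 lost a call without some library and 29 under some other alternative, and 10 and 11 gained one. Depth limits the rarest names most.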
